A study of Danio rerio with 18 samples.

Results

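Zebrafish tumours labelled as melanoma and driven from the sox10 promoter carried only traces of the melanocyte regulator mitfa, and 5 of the 12 held more of it than the other 7. These 12 tumours, of 18 in the series, were assigned to sets chosen by the level of the mitfa transcript itself, at 2.5 CPM, the number of reads of a gene per 1000000 reads assigned to genes. The 5 tumours at or above that level, sox10 tumours 1, 2, 6, 11 and 12, are called mitfa-higher here, and the 7 below it, sox10 tumours 3, 4, 5, 7, 8, 9 and 10, mitfa-lower. The division is by a measured value. Neither set is a treatment or a labelled group, and the mitfa values that made them are given as a description without a test.

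All 18 samples were whole tumours from adult zebrafish of the Tu line on a p53-/- background, injected with a plasmid at the 1-cell stage. The 12 tumours compared here arose from sox10-BRAFV600E, in which the sox10 promoter drives the melanoma oncogene, and the 6 others, called mitfa-plasmid tumours here, from mitfa-BRAFV600E. An injected animal is usually a mosaic, so that its tumour holds cells with and without the plasmid. The fish were F0 animals, the injected generation itself. The labels do not say that each tumour came from a different fish, and p-values cover only the spread among these samples. RNA of each entire tumour was sequenced, and fewer cells of a type cannot be told apart from less RNA per cell.

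Mitfa is a basic helix-loop-helix leucine zipper transcription factor of the MiT family, and zebrafish without it lack body melanocytes. It acts on the pigment genes, among them those for the melanosome matrix protein pmela and the melanin enzymes tyrosinase, TYRP1 and DCT. SOX10, a transcription factor of the neural crest, acts upstream of mitfa in the melanocyte lineage and also works in Schwann cells and oligodendrocytes. Capital names below are those the gene table gives for the zebrafish genes, and an identifier follows where several genes share a name.

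The mitfa transcript stood at 6.89, 8.94, 4.81, 3.06 and 6.33 CPM in mitfa-higher tumours 1, 2, 6, 11 and 12. In the mitfa-lower tumours it was lowest at 0.661 CPM in tumour 10, had a median of 1.34 CPM, and was highest at 1.95 CPM in tumour 4. The 6 mitfa-plasmid tumours held 132 to 190.4 CPM. The sets are apart by construction, and all 12 sox10 tumours lay far below the mitfa-plasmid tumours: the lowest of these was 14.8-fold above the highest mitfa-higher tumour. Means were 6.0 ± 2.21 CPM in mitfa-higher tumours (SD, n = 5), 1.24 ± 0.433 CPM in mitfa-lower tumours (n = 7) and 166 ± 24.9 CPM in mitfa-plasmid tumours (n = 6). The mitfa-higher mean was 4.83-fold the mitfa-lower mean, while the mitfa-plasmid mean was 27.7-fold the mitfa-higher mean.

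These levels rested on few reads, 49 to 146 in the mitfa-higher and 12 to 32 in the mitfa-lower tumours. Just inside the threshold, tumour 11 had 3.06 CPM with an exact Poisson 95% interval of 2.26 to 4.04 CPM. Just outside it, tumour 4 had 1.95 CPM, with an interval of 1.33 to 2.75 CPM. Both intervals, which cover counting error only, include 2.5 CPM. A threshold of 2 CPM gave the same 5 and 7 tumours, and 4 CPM gave 4 and 8.

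**Figure D1:**
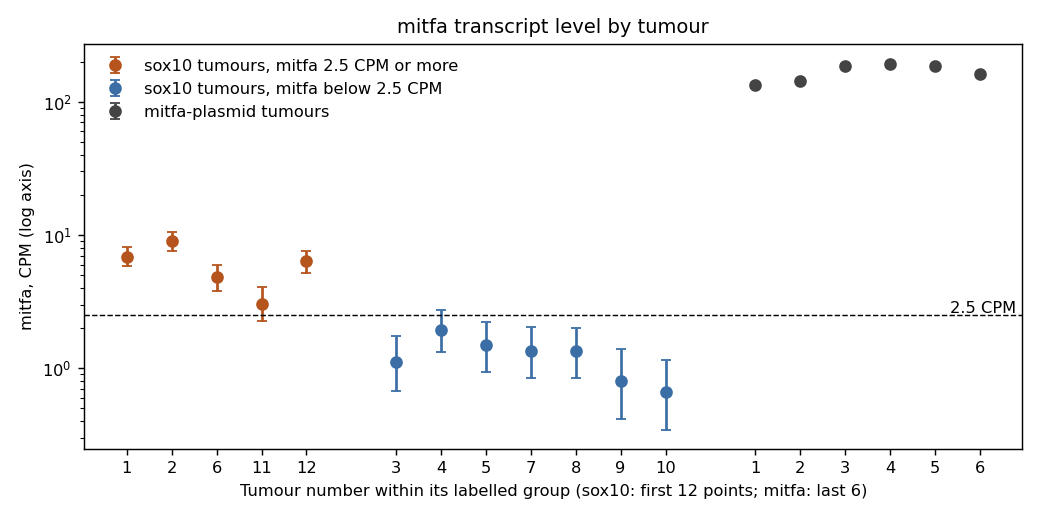
Level of mitfa in each of the 18 tumours, in CPM on a log axis, with exact Poisson 95% intervals as bars and the 2.5 CPM threshold as a line. The 5 mitfa-higher tumours sit between 3.06 and 8.94 CPM, the 7 mitfa-lower tumours between 0.661 and 1.95 CPM, and the 6 mitfa-plasmid tumours between 132 and 190.4 CPM.

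Library depth was 17461100 ± 2134440 reads in genes in the mitfa-higher and 16497500 ± 1059310 in the mitfa-lower tumours (SD, n = 5 and 7, exact two-sided permutation p = 0.366 over 792 divisions of the tumours). Reads outside genes made up 13.3 ± 2.11% in mitfa-higher and 15.1 ± 1.65% in mitfa-lower tumours, with an exact permutation p of 0.114 (adjusted p = 0.568 over 5 such measures). Tumours 9 and 10, both mitfa-lower, were far closer to each other than any other pair. Their median squared difference per gene was 2.42 times that of counting noise, against 16.5 to 80.6 times in the other pairs of the 66. They were counted as separate tumours and then summed into 1. Tumours 4 and 7, also mitfa-lower, stood apart through neuronal transcripts. Many, though not all, fold changes and counts that turned, lost a call or moved by over 1.5 times without them are given so as well. Leaving them out also makes the mitfa-lower set smaller, which by itself can lose a call. A lost call therefore does not show that it rested on these tumours.

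Across all other genes, no gene passed the test between mitfa-higher and mitfa-lower tumours. With edgeR's quasi-likelihood test, 0 of 18087 genes had an adjusted p under 0.05 (0.00%), and the smallest adjusted p was 0.313. At an unadjusted p under 0.05 there were 1812 genes (10%), 858 of them higher in mitfa-higher tumours (4.74%) and 954 lower (5.27%). With tumours 9 and 10 summed, 0 of 17871 genes passed, the smallest adjusted p was 0.459, and 600 genes were higher (3.36%) and 985 lower (5.51%) at an unadjusted p under 0.05. The limma test on weighted counts gave 0 calls. DESeq2 called 55 genes higher (0.318%) and 119 lower (0.687%) of the 17319 to which it gave an adjusted p, then 18 higher and 109 lower with the pair summed, and 17 higher and 49 lower without tumours 4 and 7. Leaving out single tumours, it called 12 to 121 higher, fewest without tumour 7 and most without tumour 11, and 52 to 183 lower, fewest without tumour 7 and most without tumour 2. The tools therefore differed on whether any gene passed, and the cause was not tested.

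The count of 0 does not show that the sets were alike. The log2 fold change of a gene had a median standard error of 0.361. For 7396 genes (40.9%) the 95% interval of the fold change stayed within 2-fold in either direction, and for the others it reached further. Without tumours 4 and 7, 0 genes passed in edgeR, with a smallest adjusted p of 0.646, and 518 genes were higher and 678 lower at an unadjusted p under 0.05.

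Most pigment genes were at low levels in both sets, although mitfa itself differed by the choice of tumours. The melanosome matrix gene pmela had 6.09, 4.01, 5.41, 3.49 and 3.78 CPM in mitfa-higher tumours 1, 2, 6, 11 and 12, against a lowest of 4.13, a median of 5.42 and a highest of 9.86 CPM in the mitfa-lower tumours. The sets overlapped, and all 12 values lay far under the 677 to 9733 CPM of the mitfa-plasmid tumours. The log2 fold change of pmela was -0.33, with a 95% interval of -0.98 to 0.31 and an adjusted edgeR p of 0.729, and was -0.21 without tumour 5 or tumour 8. The interval excludes a 2-fold higher level of pmela in the mitfa-higher tumours.

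Set against the mitfa reads of the same library, pmela gave 0.448 to 1.14 reads per mitfa read in mitfa-higher tumours, 2.78 to 7.35 in mitfa-lower tumours and 3.62 to 56.5 in mitfa-plasmid tumours. No mitfa-higher tumour reached the lowest mitfa-plasmid tumour in this ratio. Mitfa is its denominator and made the sets, so their difference is a description only.

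The melanin enzyme genes TYR and DCT had low levels in all 12 tumours, while TYRP1 varied widely. Tyrosinase (TYR) had 0.519, 0.616, 0.24, 0.25 and 0.349 CPM in the mitfa-higher tumours, against 0.243 to 1.1 CPM in the mitfa-lower tumours and 47.1 to 644 CPM in the mitfa-plasmid tumours. DCT, the next enzyme of the pathway, had 0.33 to 3.6 CPM in mitfa-higher tumours, the highest in tumour 6, against 0.304 to 0.759 CPM in mitfa-lower tumours. TYRP1 (ENSDARG00000029204) was the pigment enzyme gene with the widest range, at 2.32 to 109 CPM in mitfa-higher and 11.5 to 101 CPM in mitfa-lower tumours. Its log2 fold change was -0.19, with an interval of -1.71 to 1.33, and was 0.052 without tumour 3 and 0.12 without tumour 12. The other TYRP1 copy (ENSDARG00000056151) had 2.61 to 4.31 CPM in mitfa-higher and 2.86 to 8.41 CPM in mitfa-lower tumours.

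Transporters and receptors of melanocytes were low too. The melanosomal transporter SLC45A2 had 0.312 to 0.493 CPM in mitfa-higher and 0.22 to 2.07 CPM in mitfa-lower tumours, and the melanocortin receptor MC1R had at most 0.236 CPM in mitfa-higher and 0.388 CPM in mitfa-lower tumours. KIT, the receptor that melanoblasts need to survive and migrate, had 0.407 to 4.87 CPM in mitfa-higher and 2.19 to 4.43 CPM in mitfa-lower tumours. Of the 19 genes of the melanocyte differentiation list, 10 passed the filter on low counts. None of these 10 passed the test in either direction or had an unadjusted p under 0.05, though 2 were lower at that p without tumour 2, 1 without tumour 1 or 6, and 1 was higher without tumour 5. Their median log2 fold change was -0.35, with 2 positive and 8 negative, against a median of -0.01 over all genes tested. The 9 that failed the filter did not exceed 3.6 CPM in any sox10 tumour.

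Summed over the list, melanocyte genes reached 58.0, 225, 85.1, 99.4 and 36.9 CPM in mitfa-higher tumours 1, 2, 6, 11 and 12, against 61.1 CPM at the lowest, 85.9 CPM at the median and 331 CPM at the highest mitfa-lower tumour. The highest sum, in tumour 3, came largely from MLPH at 192 CPM and TYRP1 (ENSDARG00000029204) at 101 CPM. MLPH had 2.6 to 91.7 CPM in mitfa-higher and 2.26 to 192 CPM in mitfa-lower tumours. The mitfa-plasmid tumours held 5011 to 21753 CPM. The sums of melanocyte genes thus lay far below those of the mitfa-plasmid tumours in both sets of sox10 tumours. TYR, MC1R and OCA2 were at or under 1.1 CPM in all 12. For OCA2 the mitfa-plasmid tumours had 0.19 to 34.6 CPM, a range that overlaps that of the sox10 tumours.

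**Figure D2:**
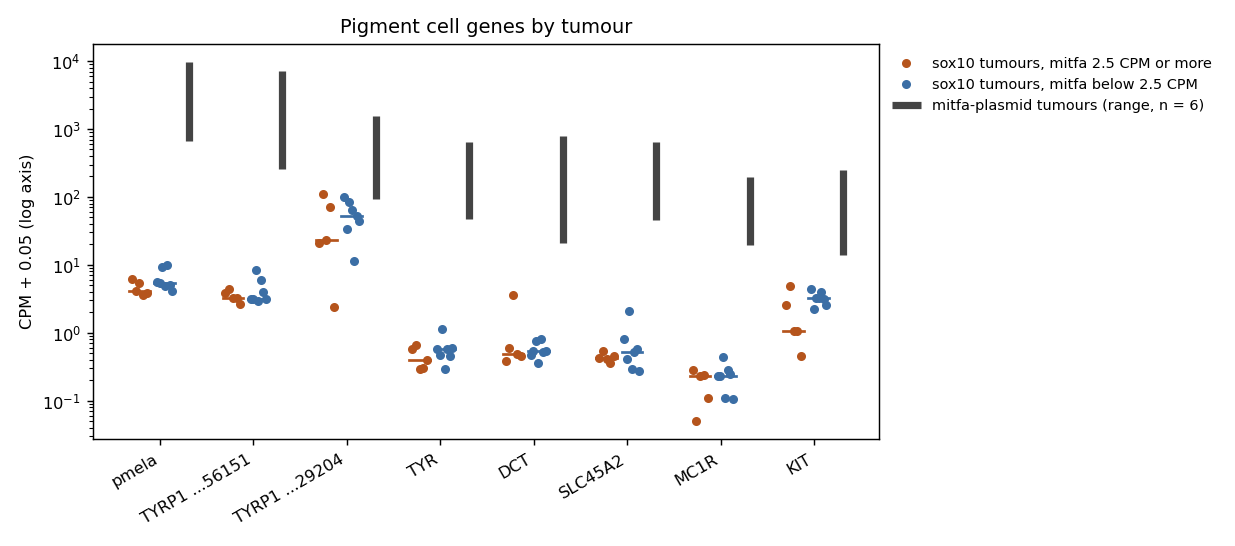
Levels of 8 pigment cell genes, as CPM plus 0.05 on a log axis, with 1 point per sox10 tumour, a short line at the median of each set, and a thick bar for the range of the 6 mitfa-plasmid tumours. The points of the mitfa-higher and mitfa-lower tumours overlap for each gene shown, and in 7 genes all 12 lie below the mitfa-plasmid range; TYRP1 (ENSDARG00000029204), with 2.32 to 109 CPM in mitfa-higher tumours, reaches its lower end.

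The regulators around mitfa overlapped between the sets too. SOX10 was abundant, with 564, 1372, 901, 1281 and 1253 CPM in the mitfa-higher tumours, against 765 CPM at the lowest, 939 CPM at the median and 1191 CPM at the highest mitfa-lower tumour. Its log2 fold change was 0.34 (95% interval -0.18 to 0.85, adjusted edgeR p = 0.653). PAX3 (ENSDARG00000010192), which acts with SOX10 on the mitfa promoter, averaged 68.0 ± 23.6 CPM in mitfa-higher and 54.4 ± 20.5 CPM in mitfa-lower tumours (SD, n = 5 and 7). TFAP2A, a partner of mitfa in melanocyte differentiation, had 0.686 to 12.3 CPM in mitfa-higher and 0.882 to 8.22 CPM in mitfa-lower tumours. Both lay far under its 81.6 to 541 CPM in mitfa-plasmid tumours. TFAP2E, a related factor, had 0.431 to 1.27 CPM in mitfa-higher and 0.331 to 3.01 CPM in mitfa-lower tumours.

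The other MiT family genes did not differ in a way the test could show. The second MITF copy (ENSDARG00000037833) had 1.60 to 9.54 CPM in mitfa-higher and 2.91 to 12.4 CPM in mitfa-lower tumours, with a log2 fold change of -0.24 and an interval of -1.25 to 0.76. This turned to 0.12 without tumours 4 and 7 and to 0.051 without tumour 7 alone, and was -0.77 without tumour 11. TFEB, a regulator of lysosome genes, had 77.5 to 163 CPM in mitfa-higher and 74.7 to 165 CPM in mitfa-lower tumours. TFEC had 2.90 to 7.83 CPM in mitfa-higher and 3.74 to 13.9 CPM in mitfa-lower tumours. All 5 family members were tested, with 0 calls and a median log2 fold change of -0.24, which turned to 0.05 without tumour 7 and 0.04 without tumours 4 and 7.

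Of 16 genes listed as MITF targets outside pigment synthesis, 0 passed, and their median log2 fold change was -0.11, which turned to 0.11 without tumour 2 or tumour 8 and 0.03 without tumour 5 or tumour 11. The list had 0 genes higher and 2 lower at an unadjusted p under 0.05, a count of lower genes that was 0 without tumour 2, 11 or 12 and 3 without tumour 6. The 2 were ASAH1 (ENSDARG00000034817), an acid ceramidase, at -1.42, and bcl2a, which protects cells from death, at -0.87. This ASAH1 copy had 42.9 to 121 CPM in mitfa-higher and 41.7 to 435 CPM in mitfa-lower tumours, highest in tumours 3, 4 and 7. The other copy (ENSDARG00000037091) was at -0.15. The level of bcl2a was 3.02 to 7.45 CPM in mitfa-higher and 3.90 to 15.5 CPM in mitfa-lower tumours, highest in tumours 9 and 10. With these tumours summed, 1 gene of the list was lower at that p. Neither the iridophore list (13 tested) nor the xanthophore list (10 tested), the other pigment cell types of the fish, had a call. The iridophore median was 0.37, or 0.05 without tumour 6. The xanthophore median was 0.14, or -0.04 without tumour 1 or tumour 2.

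The neural crest and glial genes SOX9, OLIG2 and S100B, abundant in all sox10 tumours, also overlapped. SOX9 (ENSDARG00000043923), a neural crest and glial factor, had 1346, 1398, 448, 2000 and 1287 CPM in the mitfa-higher tumours and 674 to 1657 CPM in the mitfa-lower tumours. The other SOX9 copy (ENSDARG00000003293) had 144 to 824 CPM in mitfa-higher and 54.7 to 357 CPM in mitfa-lower tumours. Tumours 2 and 11 lay above the mitfa-lower range. Its log2 fold change was 0.71 (95% interval -0.30 to 1.73, adjusted edgeR p = 0.627). OLIG2, of the oligodendrocyte lineage, had 343 to 675 CPM in mitfa-higher and 295 to 583 CPM in mitfa-lower tumours, with a log2 fold change of 0.34 and an interval of -0.16 to 0.84, and 0.15 without tumour 11. The glial calcium-binding protein gene S100B had 233 to 1637 CPM in mitfa-higher and 896 to 2490 CPM in mitfa-lower tumours. The neural crest list (18 tested) had no edgeR call. The list's median log2 fold change of 0.08 was 0.0069 without tumours 4 and 7 and turned to -0.01 without tumour 1. Within it the endothelin receptor EDNRA had 1.68 to 3.06 CPM in mitfa-higher against 3.31 to 6.60 CPM in mitfa-lower tumours, with no overlap (adjusted p = 0.381 in edgeR and 0.0256 in DESeq2). DESeq2 also called ZIC1, a factor of the neural plate border, with 0.12 to 1.04 CPM in mitfa-higher and 0.0591 to 31.4 CPM in mitfa-lower tumours. Tumours 4 and 7 had 31.4 and 22.5 CPM of ZIC1, and the other mitfa-lower tumours at most 1.54 CPM. Over all genes, DESeq2 called 0.687% lower, and 0.769% lay wholly below. Without tumours 4 and 7 DESeq2 called neither, with an adjusted p of 0.202 for EDNRA and none given for ZIC1. EDNRA was also not called without any of tumours 1, 2, 4, 7, 8, 11 and 12 alone, nor ZIC1 without any of tumours 2, 4, 6, 7, 11 and 12. The Schwann and glia list (23 tested) had a median of -0.32, which became 0.34 without tumours 4 and 7, -0.20 without tumour 7 alone and -0.53 without tumour 11.

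The remaining preset genes overlapped between the sets. EDNRB (ENSDARG00000089334), an endothelin receptor of pigment cells, had 2.25 to 94.6 CPM in mitfa-higher and 4.2 to 53.5 CPM in mitfa-lower tumours. Its log2 fold change of 0.86 (95% interval -0.87 to 2.58) turned to -0.20 with the share of reads outside genes in the fit, and was 0.046 without tumour 6 and 1.41 without tumour 3. The crest factor snai2 had 1.43 to 6.73 CPM in mitfa-higher and 1.70 to 6.48 CPM in mitfa-lower tumours, and the melanosomal protein gene OCA2 at most 0.407 CPM in mitfa-higher and 0.642 CPM in mitfa-lower tumours. SIX6 (ENSDARG00000031316), of eye and hypothalamus, had 17.03 to 574 CPM in mitfa-higher and 12.3 to 383 CPM in mitfa-lower tumours. The chromatin factor ATAD2 had 24.1 to 99.0 CPM in mitfa-higher and 10.5 to 122 CPM in mitfa-lower tumours, at 0.33 (95% interval -0.89 to 1.54), or 0.10 without tumour 1 and 0.63 without tumour 9. The epithelial cadherin cdh1 had 2.18 to 52.6 CPM in mitfa-higher and 1.1 to 25.7 CPM in mitfa-lower tumours. The zebrafish BRAF gene had 8.05 to 16.99 CPM in mitfa-higher and 11.2 to 25.5 CPM in mitfa-lower tumours, at -0.39 (95% interval -0.96 to 0.19), or -0.26 without tumour 11.

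The named genes with the smallest p-values, at a mean of at least 2 CPM, were mostly lower in the mitfa-higher tumours. By the rule for naming genes, 10 are given, each with an adjusted edgeR p of 0.313, so none passed. In 9 of the 10 the fold change was negative, and in these 9 every mitfa-higher tumour lay below every mitfa-lower tumour. The 10 were chosen by their p for this same division, so their separation follows largely from that choice. Their DESeq2 calls come from the same counts and are no separate evidence. Of all genes tested, 139 lay wholly below (0.769%) and 21 wholly above (0.116%), or 0.885% on either side. Here and below, such separation was judged on CPM, without the scaling factors of the fit. How far those factors would change it was not tested. In the fit itself 8890 fold changes were positive and 9197 negative. DESeq2 called all 10, also with the pair summed and with any single tumour left out, but without tumours 4 and 7 it called 8, with adjusted p-values of 0.0666 for aste1a and 0.0587 for ifi27.2.

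IRF7, a transcription factor that turns on interferon genes, had 9.20, 7.40, 8.17, 9.92 and 6.51 CPM in mitfa-higher tumours 1, 2, 6, 11 and 12, against 13.1 CPM at the lowest, 29.1 CPM at the median and 37.4 CPM at the highest mitfa-lower tumour. Its log2 fold change was -1.50 ± 0.29 (SE), with an unadjusted p of 0.000166. The mitfa-plasmid tumours held more of it than the mitfa-higher tumours, at 28.5 to 425 CPM. The interferon-induced gene ifi27.2 had 25.4, 16.8, 9.79, 20.8 and 33.6 CPM in mitfa-higher tumours, against 46.2 CPM at the lowest and 83.9 CPM at the highest mitfa-lower tumour, a log2 fold change of -1.49 ± 0.31. For herc56.2 the values were 1.26 to 3.87 CPM in mitfa-higher and 8.35 to 14.3 CPM in mitfa-lower tumours, with a log2 fold change of -1.77 ± 0.33.

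The vessel gene kdrl, a receptor for vascular endothelial growth factor on endothelial cells, had 8.45, 7.15, 7.21, 9.29 and 8.71 CPM in mitfa-higher tumours, against 13.7 CPM at the lowest, 19.1 CPM at the median and 22.1 CPM at the highest mitfa-lower tumour. Its log2 fold change was -1.01 ± 0.20. LAMB1 (ENSDARG00000045524), a laminin chain of basement membranes, had 8.67 to 11.3 CPM in mitfa-higher and 14.8 to 37.1 CPM in mitfa-lower tumours, at -1.26 ± 0.24. BEST1, a chloride channel of the retinal pigment epithelium, had 0.849 to 3.90 CPM in mitfa-higher and 5.54 to 17.2 CPM in mitfa-lower tumours, at -2.14 ± 0.41. The remaining genes below in every mitfa-higher tumour were aste1a (-1.27), apof (-2.30) and ssuh2.2 (-1.38).

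AARS1, the alanyl-tRNA synthetase, was the gene of the 10 with a positive fold change. It had 301, 578, 475, 490 and 446 CPM in mitfa-higher tumours, against 227 CPM at the lowest, 261 CPM at the median and 317 CPM at the highest mitfa-lower tumour. Tumour 1 lay within the mitfa-lower range, and the log2 fold change was 0.91 ± 0.19.

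**Figure D3:**
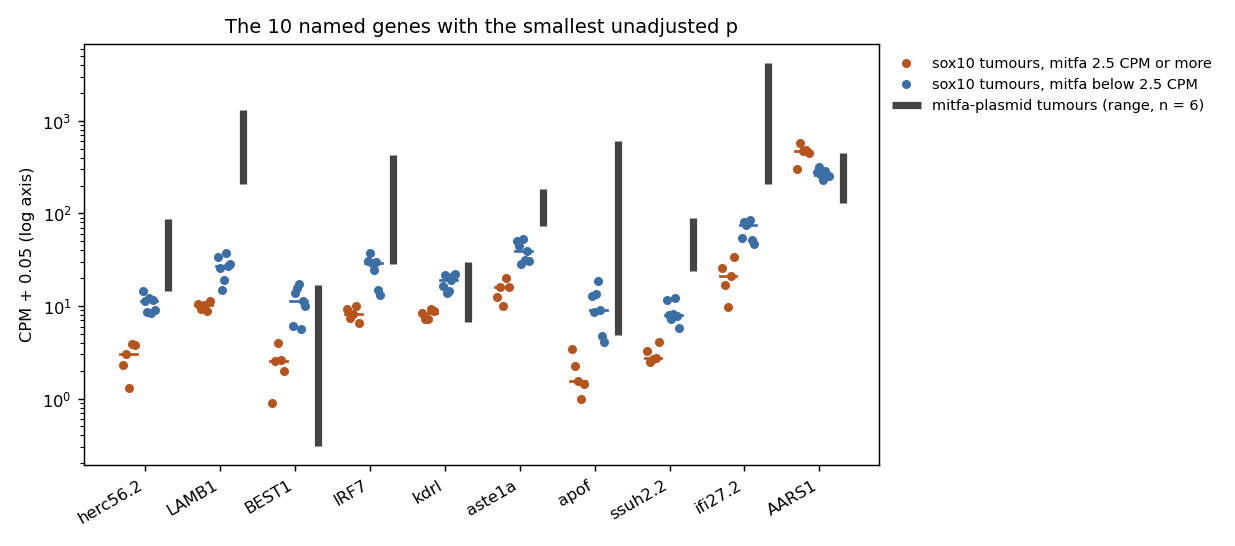
The 10 named genes with the smallest unadjusted p at a mean of at least 2 CPM, as CPM plus 0.05 on a log axis. Each sox10 tumour has 1 point and each set a short line at its median. A thick bar gives the range of the 6 mitfa-plasmid tumours. In 9 genes the mitfa-higher tumours lie below the mitfa-lower tumours without overlap, and in AARS1 tumour 1 (301 CPM) lies within the mitfa-lower range.

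Genes of the interferon response, IRF7 among them, leaned lower, though none passed edgeR's test. IRF7 was named above for its small p on this same division. It is included in the counts of negative, lower, separated and DESeq2-called genes given here. Of 22 tested, 21 had a negative fold change and the median was -0.59. At an unadjusted p under 0.05, 9 were lower and 0 higher, against 5.27% lower among all genes, and 2 lay wholly below, against 0.769%. DESeq2 called 4 lower, against 0.687% of genes, namely IRF7, the viral RNA sensor IFIH1 and the antiviral GTPases mxa and mxb. Of these it called IRF7 alone without tumours 4 and 7 (adjusted p = 0.0326), against 0.232 for mxa and IFIH1 and 0.362 for mxb, and with tumours 9 and 10 summed IFIH1 was not called (adjusted p = 0.0509). Leaving out single tumours, IRF7 was called each time, while mxa was lost in 7 of 12 fits, IFIH1 in 8 and mxb in 5, all 3 of them without tumour 1, 2, 4 or 7. The mxa transcript had 3.51 to 6.97 CPM in mitfa-higher and 7.22 to 19.8 CPM in mitfa-lower tumours (log2 fold change -1.15). The antiviral enzyme gene RSAD2 had 4.15 to 29.4 CPM in mitfa-higher and 13.1 to 99.8 CPM in mitfa-lower tumours, at -1.65. Summed, the list held 1223, 1054, 931, 1127 and 1285 CPM in mitfa-higher tumours 1, 2, 6, 11 and 12, against 1138 CPM at the lowest, 1565 CPM at the median and 2389 CPM at the highest mitfa-lower tumour. Tumours 9 and 10, at 0.801 and 0.661 CPM of mitfa, had sums of 1277 and 1138 CPM, within the mitfa-higher range. The mitfa-plasmid tumours held 3201 to 10003 CPM.

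Endothelial genes gave 12 negative fold changes of 15 tested, with a median of -0.67 and 0 edgeR calls. At an unadjusted p under 0.05, 7 were lower, against 5.27% of all genes, and 0 higher. The 7 became 4 without tumour 1 or tumour 11 and 4 without tumours 4 and 7. DESeq2 called kdrl and flt1, another receptor for vascular endothelial growth factor, against 0.687% of genes, and without tumours 4 and 7 kdrl alone (adjusted p = 0.00568, against 0.102 for flt1). The level of flt1 was 0.755 to 2.53 CPM in mitfa-higher and 2.94 to 12.2 CPM in mitfa-lower tumours, without overlap. In all, 3 genes of the list lay wholly below, against 0.769% of all genes. These counts include kdrl, which was named above for its small p on this same division. The junction protein gene cdh5 overlapped, at 4.39 to 7.03 CPM in mitfa-higher and 5.17 to 16.4 CPM in mitfa-lower tumours. The list summed to 97.2, 121, 91.8, 94.6 and 65.5 CPM in mitfa-higher tumours, against 120 CPM at the lowest, 162 CPM at the median and 221 CPM at the highest mitfa-lower tumour. Tumour 2 and tumour 9 met at the edge of the ranges.

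Macrophage and lymphocyte lists had negative medians as well, and their part in the interferon and endothelial values was not tested. Of 19 macrophage genes tested, 18 had a negative fold change, with a median of -0.69, which was -0.31 without tumour 3. At an unadjusted p under 0.05, 5 were lower, against 5.27% of all genes, and 8 without tumour 6. The list summed to 1735 to 2262 CPM in mitfa-higher and 1848 to 4493 CPM in mitfa-lower tumours. Its granulin gene grna had 50.5 to 91.9 CPM in mitfa-higher and 118 to 234 CPM in mitfa-lower tumours, without overlap (adjusted p = 0.353 in edgeR and 0.0404 in DESeq2). Over all genes, DESeq2 called 0.687% lower, and 0.769% lay wholly below. DESeq2 did not call grna without tumours 4 and 7 (adjusted p = 0.238), nor without any of tumours 1, 2, 3, 4, 6, 7, 8 and 12 alone. Of 15 lymphocyte genes tested, 14 were negative, with a median of -0.64, which was -0.35 without tumour 8, -0.42 without tumour 10 and -0.96 without tumour 12. Their sum was 57.2 to 120.3 CPM in mitfa-higher and 56.2 to 207 CPM in mitfa-lower tumours.

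**Figure D4:**
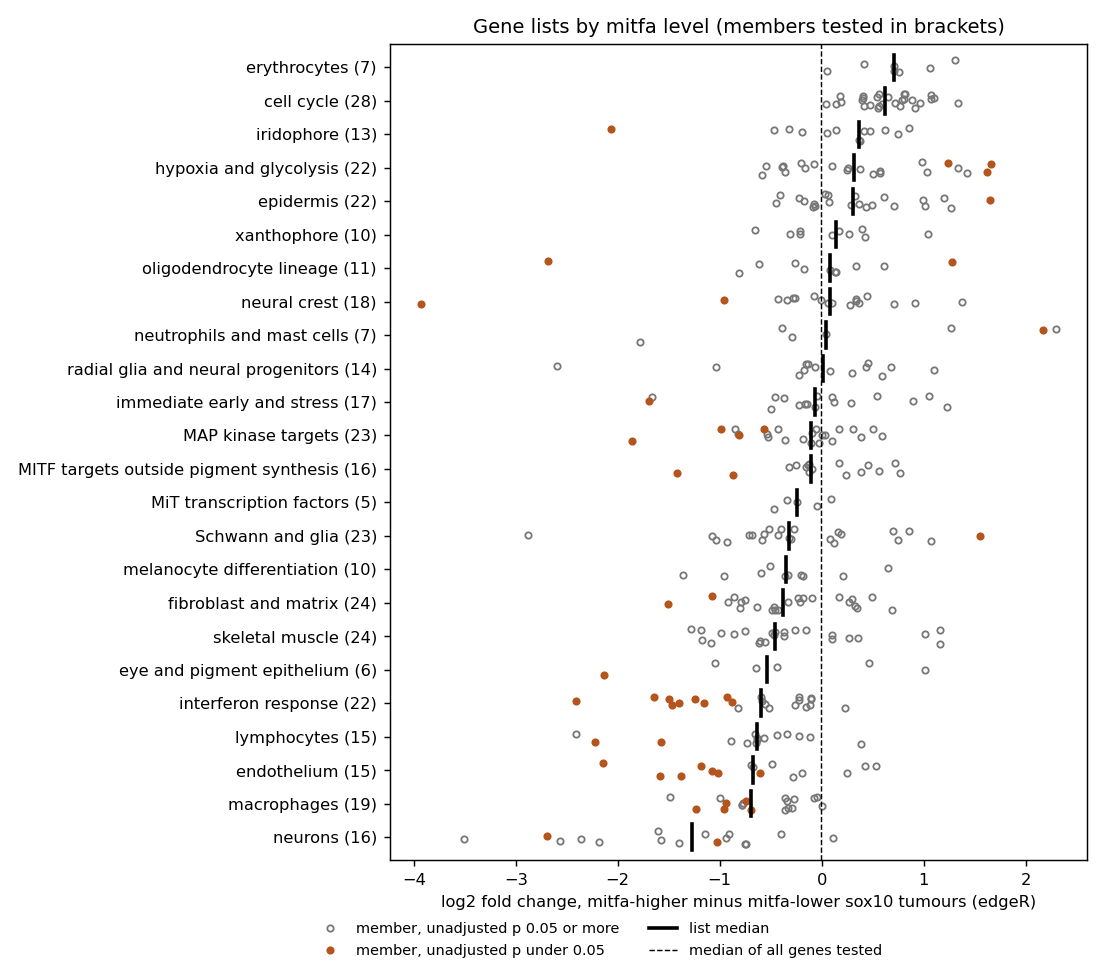
Fitted log2 fold change, mitfa-higher minus mitfa-lower sox10 tumours, of each tested member of 24 gene lists, with the list's median as a bar and the median of all genes as a dashed line. Filled points have an unadjusted p under 0.05 and none passes after adjustment; 21 of 22 interferon and 18 of 19 macrophage genes lie left of 0, and 28 of 28 cell cycle genes lie right of it.

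Cell cycle genes leaned the other way. All 28 tested had a positive fold change, with a median of 0.62, yet 0 had an unadjusted p under 0.05. With tumours 9 and 10 summed 4 were higher at that p, against 3.36% of all genes, as were 4 without tumour 6 or tumour 9 and 3 without tumour 10. The sum of the list was 5237, 3499, 1304, 1360 and 2688 CPM in mitfa-higher tumours 1, 2, 6, 11 and 12, against 647 CPM at the lowest, 1627 CPM at the median and 4315 CPM at the highest mitfa-lower tumour. Tumour 1 was highest, tumours 9 and 10 followed, and the sets overlapped over most of the range. The replication clamp PCNA had 183 to 884 CPM in mitfa-higher and 87.9 to 543 CPM in mitfa-lower tumours. The median of the list was 0.28 without tumour 1 and 0.87 with tumours 9 and 10 summed.

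Of 22 genes of the hypoxia and glycolysis list, 3 were higher at an unadjusted p under 0.05, against 4.74% of all genes, and 0 lower. The 3 became 1 with tumours 9 and 10 summed and without tumour 8, 9 or 10 alone, 5 without tumour 3 and 7 without tumour 1. Fold changes were positive in 14 of the 22 and negative in 8. The median was 0.32, or 0.18 without tumour 6, 0.19 without tumour 2 and 0.53 without tumour 5. VEGFA (ENSDARG00000103542), the growth factor that acts on endothelial receptors, had 19.96, 156, 143, 148 and 37.1 CPM in mitfa-higher tumours 1, 2, 6, 11 and 12, against 8.93 CPM at the lowest, 33.2 CPM at the median and 60.3 CPM at the highest mitfa-lower tumour. Tumours 2, 6 and 11 were above the mitfa-lower range, and tumours 1 and 12 within it. The log2 fold change was 1.62 (95% interval 0.48 to 2.76, adjusted edgeR p = 0.418). The glucose transporter SLC2A1 (ENSDARG00000007412) had 8.35 to 113 CPM in mitfa-higher and 11.5 to 45.0 CPM in mitfa-lower tumours, at 1.24.

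Neuronal genes had the lowest median of the 24 lists, at -1.27 over 16 tested, of which 15 were negative. This rested on tumours 4 and 7, whose sums were 1395 and 1857 CPM, against 412 to 743 CPM in the mitfa-higher and 476 to 710 CPM in the other mitfa-lower tumours. Without these 2 tumours the median was 0.04. The neuronal RNA-binding protein gene ELAVL3 overlapped in any case, at 234 to 643 CPM in mitfa-higher and 256 to 598 CPM in mitfa-lower tumours.

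Other tissues varied widely within both sets. Skeletal muscle genes summed to 42.2 to 8031 CPM in mitfa-higher and 34.4 to 18294 CPM in mitfa-lower tumours, with tumours 8, 9 and 10 highest. Epidermis genes summed to 299 to 4187 CPM in mitfa-higher and 225 to 2903 CPM in mitfa-lower tumours, and fibroblast and matrix genes to 706 to 1592 CPM in mitfa-higher and 459 to 3993 CPM in mitfa-lower tumours. The median log2 fold change was -0.46 for muscle (0.11 without tumour 8) and 0.30 for epidermis (-0.71 without tumour 6). For fibroblast and matrix it was -0.38 (-0.07 without tumour 8), with 17 of 24 negative. DESeq2 called acta2 of that list lower (adjusted p = 0.0428), against 0.687% of genes. It did not call acta2 without tumours 4 and 7 (0.308), with tumours 9 and 10 summed (0.0790), or in 9 of 12 fits without single tumours. Erythrocyte genes summed to 45.2 to 507 CPM in mitfa-higher and 30.3 to 241 CPM in mitfa-lower tumours. All 7 tested were positive, 0 of them at an unadjusted p under 0.05. Their median of 0.71, the highest of the 24 lists, was 0.11 without tumour 6 and 1.58 without tumours 4 and 7. With the epidermis, muscle, fibroblast or neuron level of each tumour as a term in the fit, edgeR still called 0 genes. The lists of MAP kinase targets (23 tested), immediate early and stress genes (17), the oligodendrocyte lineage (11), radial glia (14), neutrophils and mast cells (7) and the eye (6) had 0 edgeR calls. At an unadjusted p under 0.05, 4 MAP kinase targets were lower, against 5.27% of all genes, and 0 higher. DESeq2 called PHLDA1 of that list (adjusted p = 0.0166) and olig1 of the oligodendrocyte lineage (0.0337), both lower, against 0.687% of genes. It called neither without tumours 4 and 7 (0.0775 and 0.141), nor olig1 with tumours 9 and 10 summed (0.0790). Leaving out single tumours, PHLDA1 was lost without tumour 7 or 12, and olig1 in 9 of 12 fits.

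**Figure D5:**
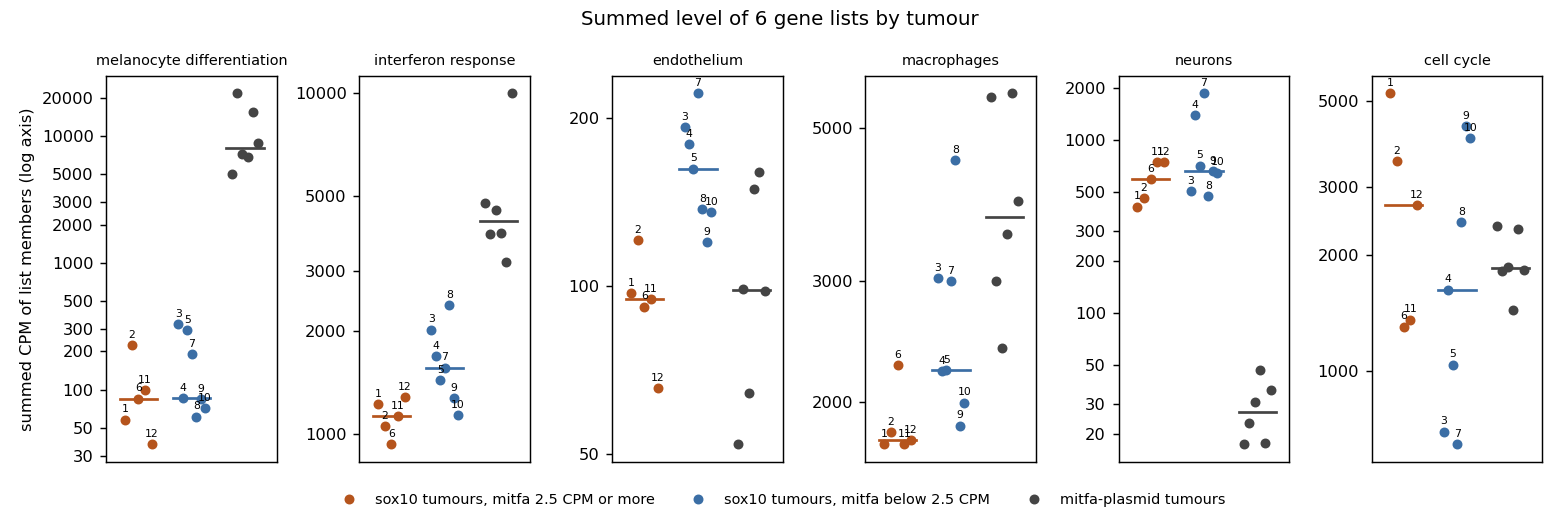
Summed CPM of the members of 6 gene lists in each tumour, on log axes, with sox10 tumours numbered and the median of each set as a line. Melanocyte genes are at 36.9 to 331 CPM in both sets of sox10 tumours against 5011 to 21753 CPM in mitfa-plasmid tumours, and the high neuronal sums belong to tumours 4 and 7.

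As a description over the 12 sox10 tumours, in which tumours 9 and 10 are nearly alike, genes were ranked by Spearman correlation of their CPM with that of mitfa. The highest were RPLP0, a protein of the large ribosomal subunit (rho = 0.902), the mitochondrial protease HTRA2 (ENSDARG00000069909, 0.902), the sodium pump subunit atp1b3b (0.895), LDB1 (ENSDARG00000010137, 0.881) and DESI2 (0.874). RPLP0 had 5026, 6791, 4943, 4591 and 6627 CPM in mitfa-higher tumours, against 2643 CPM at the lowest, 3312 CPM at the median and 4308 CPM at the highest mitfa-lower tumour, without overlap. The lowest were the actin scaffold IQGAP1 (-0.951), the cofilin phosphatase SSH1 (ENSDARG00000056780, -0.944), ptpn23b (-0.930), the transporter abcc3 (-0.916) and the cytoplasmic actin actb2 (-0.909). IQGAP1 had 21.3 to 40.7 CPM in mitfa-higher and 44.3 to 97.2 CPM in mitfa-lower tumours. Tumours 9 and 10 had the lowest mitfa levels, at 0.801 and 0.661 CPM. Of the genes named here, IQGAP1, SSH1 and abcc3 were highest in this pair, and HTRA2, atp1b3b, LDB1 and DESI2 were lowest in it. The ranking counts the pair as separate tumours, and no ranking with the pair summed is given. RPLP0 and IQGAP1 were chosen by their correlation with mitfa, which made the sets, so their separation follows largely from that choice. Of 15308 tested genes with a mean of at least 2 CPM, 45 had a rho of at least 0.85 in either direction. Pmela had a rho of -0.175 with mitfa and SOX10 one of 0.217 over the same tumours. These 2 were preset and not picked by rho, so they cannot be set against the extremes.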

How the data were processed

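The authors deposited 1 table of read counts per gene for 18 tumours. FastQC, Trimmomatic, STAR, DESeq2 and the GRCz10 build are named in the submitters' processing notes, and the strand setting is not given in the sources used here. Rows for unassigned reads stayed out of library sizes and tests, and reads outside genes were 9.46 to 17.4% of a library. Levels are CPM on gene totals. Differences were fitted with edgeR 4.0.16 (quasi-likelihood, TMM factors, filterByExpr with a count minimum of 10, Benjamini-Hochberg adjustment at 0.05) in R 4.3.3, on the 12 sox10 tumours with mitfa left out. DESeq2 1.42.0 and limma 3.58.1 were alternatives, and the fit was tested on simulated data. SE is the fold change over the root of F. Of 27057 identifiers, 24020 had a name, and 424 of 463 listed names matched; foxd3 was not analysed here. Members and lists were chosen with earlier results of these data known. Named genes were 25 preset genes, the 10 named genes with the smallest p at a mean of at least 2 CPM where fewer than 10 were called, and the 5 highest and 5 lowest correlations with mitfa. Other genes were named from the lists after their values were seen.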

Additional observations from a re-analysis of the deposited data

Results flagged for a closer look

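Of 86 sets of values examined for a single distant tumour, 4 held one, and chance gives about 1 in 20. Sox10 tumour 8, mitfa-lower, had 54.7 CPM of the glial factor SOX9 (ENSDARG00000003293), with the nearest mitfa-lower tumour at 204 CPM. The same tumour had 12.3 CPM of the eye and brain factor SIX6 (ENSDARG00000031316), with the nearest mitfa-lower tumour at 133 CPM. Sox10 tumour 1, mitfa-higher, had 2304 CPM of actb2, with the nearest mitfa-higher tumour at 3757 CPM. Its library also held the most reads in genes of that set, 21191900, with the next at 17213700.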

How the results depend on the processing

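No paired analysis was possible because the mitfa-higher and mitfa-lower tumours are different tumours of one labelled group and share no replicate number. In each of 29 edgeR alternatives 0 genes passed, with smallest adjusted p-values of 0.204 to 1.00, and leaving out each tumour in turn gave 0 to 0 calls higher and 0 to 0 lower (1265 to 2130 genes at an unadjusted p under 0.05). Among the 29, the mitfa threshold of 2 CPM gave the same sets and so repeats the main fit, here and in the counts of kept values below. Limma gave 0 calls. DESeq2 called 55 higher and 119 lower, 18 and 109 with tumours 9 and 10 summed, and 17 and 49 without tumours 4 and 7. With single tumours left out it called 12 to 121 higher and 52 to 183 lower. These last 3 DESeq2 settings were added after seeing the data. The cause was not tested. Of 1845 values of single named genes and library measures, 1614 kept their direction and side of the threshold, 173 passed only under an alternative and 58 changed sign. The 173 all came from DESeq2 on the same counts. They belong to genes named for their p or their correlation with mitfa, and none to a preset gene. The log2 fold changes that changed sign were as follows. With limma TFAP2E was 0.35 and ELAVL3 -0.025, and with upper quartile factors TFAP2A was 0.035. Without tumours 4 and 7 MITF (ENSDARG00000037833) was 0.12 and TFAP2A 0.50 in edgeR, and 0.14 and 0.51 in DESeq2. At 4 CPM TFAP2A was 0.41, SOX9 (ENSDARG00000043923) -0.055, snai2 0.013 and ELAVL3 -0.20. With mitfa as a continuous term TFAP2A was 0.070 and ELAVL3 -0.058. With the share of reads outside genes MITF (ENSDARG00000037833) was 0.059, EDNRB (ENSDARG00000089334) -0.20 and cdh1 -0.14. With the epidermis level cdh1 was -0.33, and with the muscle level TYRP1 (ENSDARG00000029204) was 0.14, TFAP2A 0.26 and TFAP2E 0.30. TFAP2A was 0.22 with the fibroblast level and 0.35 with the neuron level. Leaving out single tumours in edgeR or DESeq2, ranges were -1.18 to 0.28 for TFAP2A, -0.014 to 0.79 for SIX6 (ENSDARG00000031316), -0.79 to 0.14 for TYRP1 (ENSDARG00000029204), -0.30 to 0.092 for TYRP1 (ENSDARG00000056151), -0.50 to 0.38 for TFAP2E, -0.91 to 0.62 for cdh1, -0.77 to 0.085 for MITF (ENSDARG00000037833) and -0.085 to 0.30 for ELAVL3. With 12 to 32 mitfa reads in mitfa-lower tumours, counting error limits the placing of tumours near the threshold.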

Other observations

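The gene list of cytosolic ribosomal proteins was drawn up after values were seen, so its values are a description with no test. Of 75 such genes, 74 had a positive fold change between mitfa-higher and mitfa-lower tumours, with a median log2 fold change of 0.71. They summed to 145816, 162909, 144873, 75658 and 156203 CPM in mitfa-higher tumours 1, 2, 6, 11 and 12, against 62863 CPM at the lowest, 85032 CPM at the median and 122148 CPM at the highest mitfa-lower tumour. Tumour 11, the mitfa-higher tumour nearest the threshold, lay within the mitfa-lower range, and the other 4 lay above it. The mitfa-plasmid tumours held 88460 to 198833 CPM.

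The herc56 and ifi27 gene families, also listed after values were seen, had 10 negative fold changes among 11 tested members, with a median of -1.46, and 8 members were lower in every mitfa-higher tumour than in any mitfa-lower tumour (0.769% of all genes tested were). They summed to 102 to 194 CPM in mitfa-higher and 190.2 to 417 CPM in mitfa-lower tumours, and to 836 to 7297 CPM in mitfa-plasmid tumours. Members of such families are close in sequence, and how reads shared between them were counted is not given in the sources used here.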
